A study of Homo sapiens with 27 samples.

Results

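The heat shock protein 70 (HSP70) and heat shock protein 90 (HSP90) chaperone system was followed in U937 cells through 35 genes. They were the HSP70 and HSP110 chaperones, the HSP90 chaperones, the mitochondrial chaperonin pair, the small heat shock protein HSPB1, J-domain proteins, cochaperones of HSP90 and HSP70, and the heat shock factors HSF1 and HSF2. The genes were chosen by symbol with earlier results of these data known. They were matched to Ensembl identifiers through GENCODE release 44, and 35 of 35 were found among the 57905 identifiers of the expression table. U937 is a human line of myeloid leukemia cells with a monocytic character. The 3 groups were control cells and cells that had received matrine at 0.8 mg/ml, one for 30 min and another for 24 h, with 3 libraries in each. Matrine is an alkaloid of Sophora flavescens, and the study dissolved it in ddH2O. All groups grew in the same medium with serum, and the labels name no genetic change in these cells. The HL-60 and K562 samples of the series are not analysed here.

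HSP70 proteins bind exposed hydrophobic stretches of unfolded or newly made proteins in a cycle driven by ATP. J-domain proteins deliver substrates and trigger ATP hydrolysis, and HSP110 and BAG proteins release the nucleotide so that the substrate can leave. HSP90 acts later, on nearly folded clients such as kinases and steroid receptors, and adaptor proteins pass clients from HSP70 to HSP90. Heat shock factor 1 is the main transcriptional activator of stress-induced chaperone genes, and it binds as a trimer to heat shock elements, which are inverted repeats of GAA. Part of the system is made at high levels in unstressed growing cells, and part, such as HSPA1A, HSPA1B and DNAJB1, is known for its strong response to heat or misfolded protein.

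Total counts per library lay between 17314931 and 21930018, and the first principal component, with 72.1% of the variance, set the 24 h libraries apart from all others. The myeloid markers SPI1 (54.4 to 73.0 FPKM) and LYZ (241 to 313 FPKM) were present in all 9 libraries, whereas CD68 was low, at 0.31 to 0.88 FPKM. The erythroid marker HBG1, the T cell markers CD3D and CD3E and the epithelial marker EPCAM were listed at 0 in all libraries. FPKM is the number of fragments of a gene scaled by its length and by the depth of the library, and it can be compared between genes. The labels do not say whether the libraries of a group came from separate cultures, so p-values measure the spread between these libraries, which may be technical. In bulk RNA, a change in RNA per cell cannot be told apart from a change in the mix of cells.

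The promoter sequences below show, as examples, where some of the chaperone genes that moved differently carry heat shock elements. They were taken from RefSeq (GRCh38.p14), run 5′ to 3′ on the strand of the gene, and have in capitals every GAANNTTC or TTCNNGAA, the element of 2 repeat units. HSPA1A and HSPA1B are the stress-inducible HSP70 pair, DNAJB1 is their J-domain partner, and HSPA8, HSP90AA1, HSP90AB1 and CHORDC1 belong to the genes that fell at 24 h.
HSPA1A (chr6:31815393-31815542, + strand): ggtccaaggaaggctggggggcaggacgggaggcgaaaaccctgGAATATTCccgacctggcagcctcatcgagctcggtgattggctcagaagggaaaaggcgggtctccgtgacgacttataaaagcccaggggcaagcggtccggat
HSPA1B (chr6:31827588-31827737, + strand): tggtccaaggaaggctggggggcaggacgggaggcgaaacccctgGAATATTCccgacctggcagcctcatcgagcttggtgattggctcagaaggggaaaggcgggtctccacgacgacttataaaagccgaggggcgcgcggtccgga
DNAJB1 (chr19:14518408-14518527, - strand): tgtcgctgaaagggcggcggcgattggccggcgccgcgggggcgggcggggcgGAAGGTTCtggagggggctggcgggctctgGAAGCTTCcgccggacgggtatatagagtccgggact
HSPA8 (chr11:123062169-123062198, - strand): gggccccTTCTGGAAGGTTCtaagataggg
HSP90AA1 (chr14:102087045-102087194, - strand): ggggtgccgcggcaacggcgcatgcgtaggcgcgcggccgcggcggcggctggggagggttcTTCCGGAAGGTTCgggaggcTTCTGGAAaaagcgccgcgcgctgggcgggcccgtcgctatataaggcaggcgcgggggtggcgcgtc
HSP90AB1 (chr6:44247743-44247862, + strand): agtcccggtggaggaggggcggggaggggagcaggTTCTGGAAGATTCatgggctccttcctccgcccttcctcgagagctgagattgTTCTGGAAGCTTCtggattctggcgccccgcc
CHORDC1 (chr11:90223081-90223152, - strand): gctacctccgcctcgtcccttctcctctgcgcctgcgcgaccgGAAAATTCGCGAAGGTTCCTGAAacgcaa

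The HSPA1A and HSPA1B windows end 1 base before the annotated start, and 141 of 149 aligned bases were identical between them. Their single element of 2 units read GAATATTC in both. In HSPA8, HSP90AA1, HSP90AB1 and CHORDC1 at least 1 run of capitals is a longer element of 3 or more units. The printed genes do not stand for all that fell. Of the 18 genes with a promoter window that fell at 24 h, only 6 had an element of 3 units. DNAJB6, which was not called and is not printed, had one too. The 30 bases of HSPA8 lie upstream of the start used here but inside an exon of a longer annotated transcript.

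In control cells the system was dominated by a few abundant genes. HSP90AB1, the constitutively expressed cytosolic HSP90, had the highest level, at 1022 ± 3.5 FPKM (SD, n = 3). HSPD1, the mitochondrial HSP60, followed at 444 ± 9.3 FPKM, then HSPA8, the constitutive cytosolic HSP70, at 387 ± 9.4 FPKM, and HSP90AA1, the stress-inducible cytosolic HSP90, at 320.3 ± 11.4 FPKM. These 4 levels did not overlap between any neighbours in the order. HSPB1 (198 ± 22.1 FPKM) and HSPE1 (191 ± 6.8 FPKM), the HSP10 lid of the chaperonin, came next and overlapped. At the low end lay HSPA1B at 4.95 ± 0.39 FPKM, HSPA1A at 3.59 ± 0.67 FPKM and the J-domain gene DNAJB4 at 1.28 ± 0.20 FPKM. Of the 34 pairs of neighbours in the control order, 21 did not overlap and 13 did.

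The summed level of the 35 genes was nearly the same in control and 30 min libraries and much lower in the 24 h libraries. It made up 1.23%, 1.2% and 1.22% of all FPKM in the control, and 1.25%, 1.26% and 1.22% at 30 min. At 24 h the share was 0.653%, 0.644% and 0.649%, so that all 24 h libraries lay under all others. Counts without a length correction gave 1.36% ± 0.015 (SD, n = 3) in the control, 1.40% ± 0.038 at 30 min and 0.727% ± 0.0046 at 24 h.

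**Figure D1:**
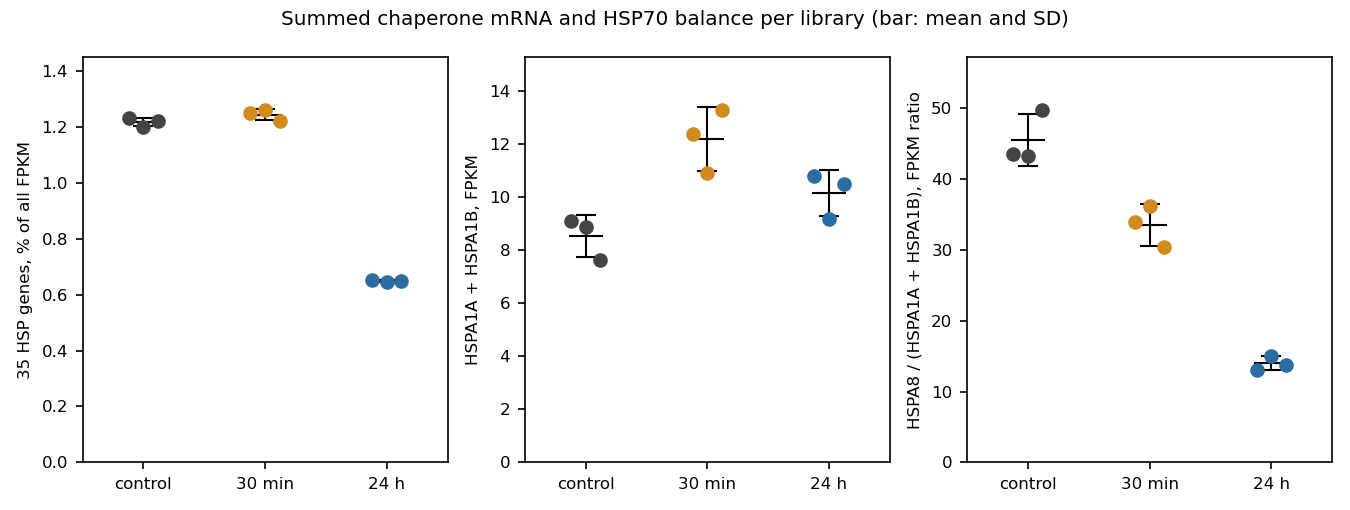
Points are single U937 libraries of the control, 30 min and 24 h groups, and bars are the mean and SD of 3 libraries. From left to right the vertical axes give the share of all FPKM held by the 35 genes (%), the summed FPKM of HSPA1A and HSPA1B, and the FPKM of HSPA8 divided by that sum. The share fell from 1.22% in the control to 0.649% at 24 h on average, while the inducible pair did not fall below its control mean of 8.54 FPKM in any 24 h library.

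The first comparison asked which chaperone genes responded within 30 min. A gene was called when the adjusted p of edgeR's quasi-likelihood test was below 0.05 and the fold change was at least 1.5. Of the 35 genes, 1 rose and 0 fell at 30 min, against 0.0949% of all 11587 genes tested called higher and 0.544% called lower. The gene that rose was HSPA1B. The median log2 fold change of the 35 genes was 0.044, and that of all genes tested was -0.0043. At an unadjusted p below 0.05 there were 6 of the 35 genes, against 11.1% of all genes tested, and DESeq2 also called 0 of them lower and 1 higher.

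HSPA1B (ENSG00000204388, chr6:31827738-31830254 of GRCh38, a gene of 1 exon) encodes a stress-inducible cytosolic HSP70. Its levels were 4.81, 5.39 and 4.65 FPKM in the control, 7.56, 7.18 and 9.01 FPKM at 30 min, and 6.62, 5.44 and 6.81 FPKM at 24 h. All 30 min libraries lay above all control libraries, with 30 min replicate 3 the highest. The increase at 30 min was 1.61-fold, a log2 fold change of 0.69 with a standard error (SE) of 0.11 and an edgeR adjusted p of 0.00141. At 24 h the log2 fold change was 0.28 (SE 0.12, edgeR adjusted p = 0.0389), under the fold change needed for a call, although the groups still did not overlap. The lowest count behind these values was 203.

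HSPA1A (ENSG00000204389, chr6:31815543-31817946) encodes a nearly identical protein from a neighbouring gene. It had 4.31, 3.48 and 2.99 FPKM in the control, 4.82, 3.70 and 4.31 FPKM at 30 min, and 4.22, 3.73 and 3.65 FPKM at 24 h. Its groups overlapped at both times, with log2 fold changes of 0.26 (edgeR adjusted p = 0.534) and 0.04 (edgeR adjusted p = 0.835). The pair share most of their sequence. Of all 150-base windows of the HSPA1A transcript, 69.6% also occurred in HSPA1B, so reads could move between these 2 genes depending on how the authors counted them. With both counts summed, the log2 fold change at 30 min was 0.53 (edgeR adjusted p = 0.00431), below the fold change needed for a call. Which copy rose is therefore uncertain.

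At 30 min all 3 libraries lay above all 3 controls for 5 of the 35 genes, against 4.89% of all genes tested, and below them for 0, against 8.91%. The 5 were HSPA1B, DNAJB1, HSP90AB1, STIP1 and BAG3. DNAJB1 (ENSG00000132002), the J-domain partner of stress-induced HSP70, had 23.4, 23.4 and 21.0 FPKM in the control, 29.0, 25.2 and 28.5 FPKM at 30 min, and 27.5, 25.1 and 27.8 FPKM at 24 h. Both treated groups lay above the control and overlapped each other. Its log2 fold change was 0.30 at 30 min (SE 0.071, edgeR adjusted p = 0.035) and 0.18 at 24 h (SE 0.071, edgeR adjusted p = 0.0304), 1.23-fold and 1.14-fold. Its exons overlap those of TECR on the opposite strand, whose own counts were 129% of those of DNAJB1. The strand setting of the counting is not given in the sources used here.

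For BAG3, a stress-inducible exchange factor of HSP70, the control held 3.90, 3.82 and 4.16 FPKM, the 30 min group 4.5, 4.57 and 4.25 FPKM, and the 24 h group 4.71, 4.31 and 4.20 FPKM. All treated libraries were above the control, by 1.13-fold at 30 min and 1.07-fold at 24 h, with edgeR adjusted p-values of 0.571 and 0.452. STIP1 and HSP90AB1 differed from the control by 1.05-fold and 1.03-fold at 30 min. The lowest value of the 30 min comparison belonged to DNAJB4, with a log2 fold change of -0.40 (SE 0.18, edgeR adjusted p = 0.378) on as few as 63 counts per library.

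**Figure D2:**
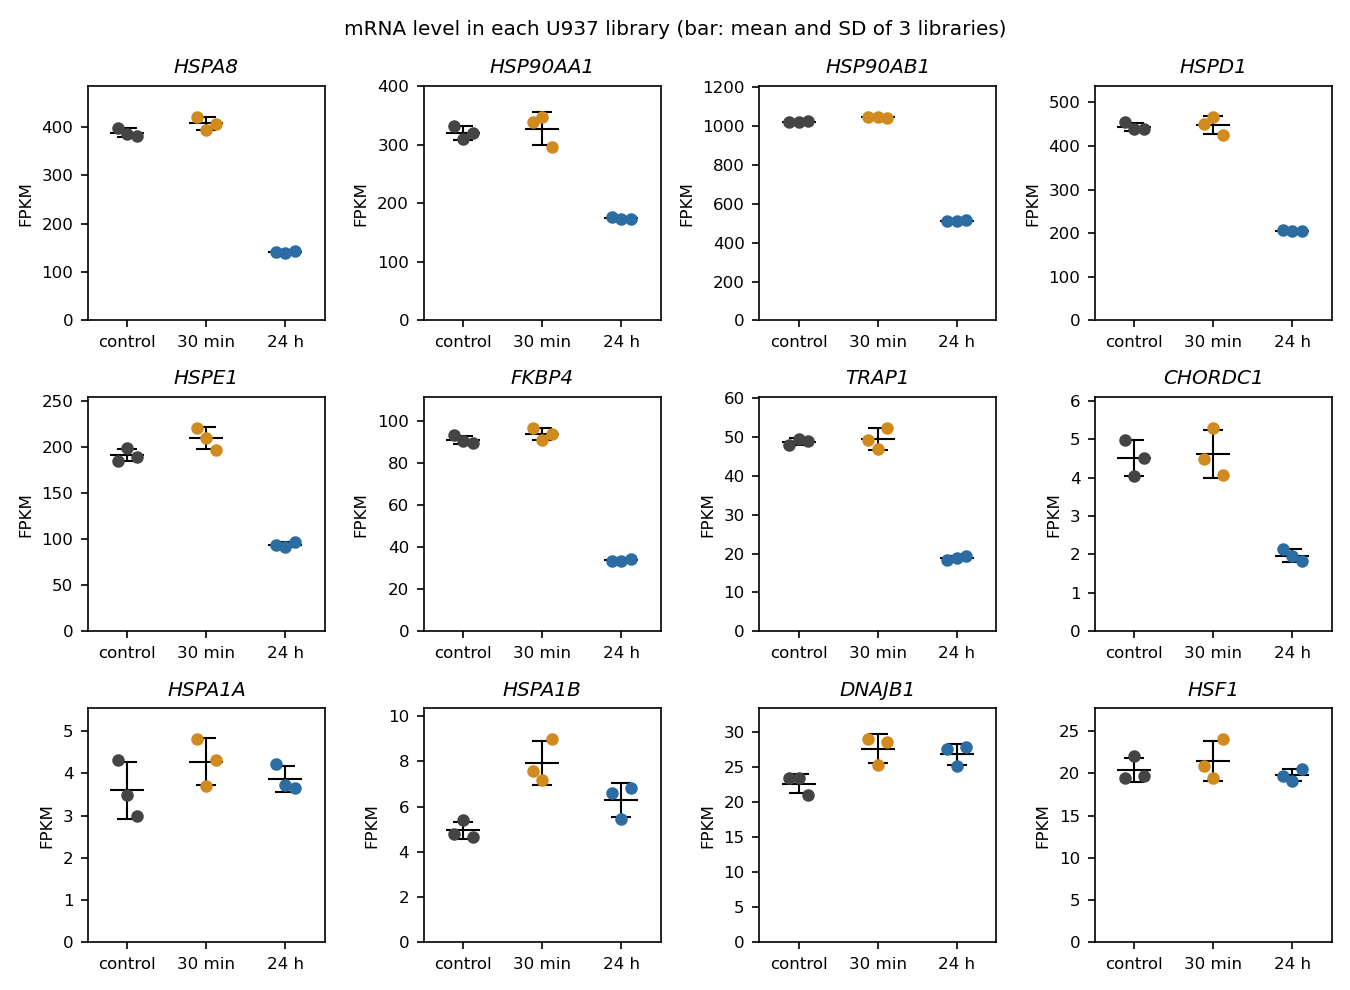
FPKM of 12 chaperone genes on the vertical axes, which start at 0, in each library of the control, 30 min and 24 h groups. Points are single libraries, and bars are the mean and SD of 3. In the upper 8 panels, from HSPA8 to CHORDC1, the 24 h libraries lie well below the rest, and in the lower 4, HSPA1A, HSPA1B, DNAJB1 and HSF1, they do not.

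The second comparison asked how the system stood after 24 h. Of the 35 genes, 19 fell and 0 rose, against 11.6% of all 12035 genes tested called lower and 14.7% called higher. The median log2 fold change of the 35 genes was -0.69 and that of all genes tested was -0.0056. All 3 libraries lay below all 3 controls for 26 of the 35, against 31% of all genes tested, and above them for 5, against 38.7%. At the adjusted p alone, 27 were lower, against 32.7% of all genes tested, and 3 higher, against 30.6%. By role, the call was made for 3 of 3 HSP90 chaperones, 3 of 3 HSP110 exchange factors, 2 of 2 chaperonin subunits and HSPB1. It was made for 2 of 6 HSP70 chaperones, 3 of 7 J-domain proteins, 4 of 8 HSP90 cochaperones, 1 of 3 HSP70 cochaperones and 0 of 2 heat shock factors. Only one control group was sequenced, and how long it was kept in culture is not given in the sources used here, so 24 h of matrine and 24 h more in culture cannot be told apart.

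**Figure D3:**
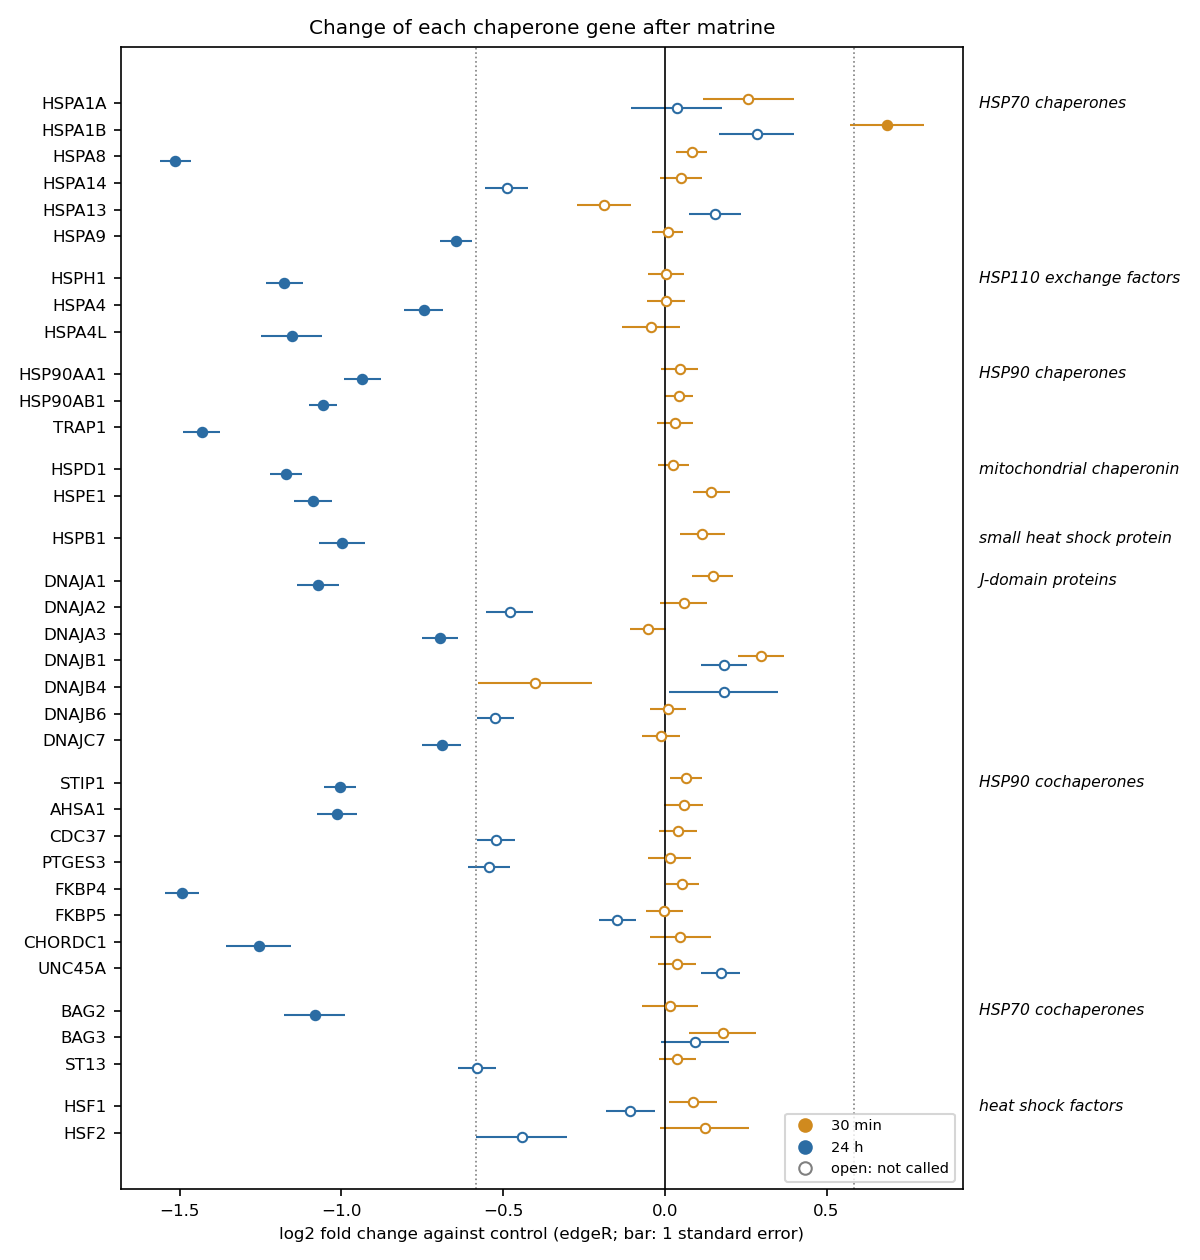
Log2 fold change of each of the 35 genes against control (horizontal axis), grouped by role, at 30 min (orange) and 24 h (blue), with bars of 1 SE from edgeR. Filled points were called, open points were not, and dotted lines mark a 1.5-fold change. At 24 h values run from -1.51 for HSPA8 to 0.28 for HSPA1B, and at 30 min HSPA1B is the single filled point.

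Among the HSP70 chaperones, HSPA8 and HSPA9 fell. HSPA8 (ENSG00000109971, chr11:123057489-123063230) folds new proteins and serves chaperone-mediated autophagy. It had 398, 384 and 380.2 FPKM in the control, 421, 394 and 406 FPKM at 30 min, and 142, 139 and 144 FPKM at 24 h. The 24 h libraries lay far below both other groups, which overlapped each other. The decrease was 2.85-fold, with a log2 fold change of -1.51 (SE 0.049, edgeR adjusted p = 9.36e-16), and it was the largest among the 35 genes. HSPA9, the mitochondrial HSP70 known as mortalin, had a mean of 156 FPKM in the control and 104 FPKM at 24 h, a 1.57-fold decrease (edgeR adjusted p = 4.83e-10). The call of HSPA9 was lost where the filter on low expression was raised to a mean FPKM above 5, with a log2 fold change of -0.57. HSPA14, a ribosome-associated HSP70, had a log2 fold change of -0.49 (edgeR adjusted p = 1.81e-06). HSPA13, a microsomal HSP70, had one of 0.15 (edgeR adjusted p = 0.103). Neither overlapped the control at 24 h, and neither reached the fold change for a call.

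The ratio of HSPA8 mRNA to that of the inducible pair HSPA1A and HSPA1B was lower than in the control at both times. The FPKM of HSPA8 divided by the sum of HSPA1A and HSPA1B was 43.6, 43.3 and 49.8 in the control, 34.0, 36.2 and 30.4 at 30 min, and 13.1, 15.1 and 13.8 at 24 h. The 3 groups did not overlap. Each pair of groups gave p = 0.1 in a two-sided exact permutation test on the log2 ratio, the smallest p that 3 against 3 libraries allow. The sum does not depend on how reads were divided between the copies, but reads shared by both may have been left out of the counting, so the size of the ratio is uncertain.

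The HSP110 proteins HSPH1, HSPA4 and HSPA4L, which act as exchange factors of HSP70, all fell at 24 h. HSPH1 (ENSG00000120694) had 64.8, 59.4 and 61.4 FPKM in the control, 62.4, 64.2 and 58.1 FPKM at 30 min, and 28.2, 28.7 and 28.8 FPKM at 24 h. The 24 h group was separate from the others and 2.26-fold below the control (log2 fold change -1.18, SE 0.057, edgeR adjusted p = 5.99e-13). HSPA4L had 2.66, 2.54 and 2.81 FPKM in the control, 2.57, 2.85 and 2.28 FPKM at 30 min, and 1.19, 1.34 and 1.23 FPKM at 24 h. It too was separate at 24 h, 2.23-fold below the control (log2 fold change -1.15, SE 0.095, edgeR adjusted p = 1.67e-09). HSPA4 went from a mean of 33.3 FPKM to 20.8 FPKM, 1.68-fold lower.

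All 3 HSP90 chaperones fell. HSP90AB1 (ENSG00000096384, chr6:44246166-44253888) had 1022, 1019 and 1026 FPKM in the control, 1048, 1047 and 1041 FPKM at 30 min, and 511, 513 and 516 FPKM at 24 h. The SD was 3.5, 3.6 and 2.1 FPKM in these groups, and the 24 h group was 2.08-fold below the control (log2 fold change -1.06, SE 0.044, edgeR adjusted p = 5.01e-14). HSP90AA1 (ENSG00000080824, chr14:102080742-102139699) had 332, 309 and 320 FPKM in the control, 339, 348 and 296 FPKM at 30 min, and 177, 173 and 174 FPKM at 24 h. Its decrease was 1.91-fold (log2 fold change -0.93, SE 0.057, edgeR adjusted p = 1.87e-11). The ratio of HSP90AB1 to HSP90AA1 was 3.20 ± 0.11 (SD, n = 3) in the control and 2.93 ± 0.046 at 24 h, and a two-sided exact permutation test on its log2 value gave p = 0.1, the smallest possible here.

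TRAP1 (ENSG00000126602, chr16:3651639-3717553) is the mitochondrial member of the HSP90 family. It had 47.9, 49.5 and 48.9 FPKM in the control, 49.1, 46.8 and 52.3 FPKM at 30 min, and 18.2, 18.8 and 19.5 FPKM at 24 h. The 24 h libraries lay well below the others, by 2.70-fold against the control (log2 fold change -1.43, SE 0.058, edgeR adjusted p = 3.26e-14). In GENCODE 44 its exons overlap DNASE1 on the opposite strand, whose own counts were 8.08% of those of TRAP1.

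The mitochondrial chaperonin genes fell together. HSPD1 (ENSG00000144381, chr2:197486584-197516737, - strand) and HSPE1 (ENSG00000115541, chr2:197500140-197503449, + strand) encode the HSP60 barrel and its HSP10 lid and lie head to head. HSPD1 had 454, 438 and 438 FPKM in the control, 451, 467 and 425 FPKM at 30 min, and 207, 204 and 205 FPKM at 24 h. HSPE1 had 185, 199 and 189.5 FPKM in the control, 221, 209.7 and 197 FPKM at 30 min, and 93.6, 91.5 and 96.7 FPKM at 24 h. Neither gene overlapped between 24 h and the earlier groups. HSPD1 was 2.25-fold lower (log2 fold change -1.17, SE 0.049, edgeR adjusted p = 5.83e-14) and HSPE1 was 2.12-fold lower (log2 fold change -1.09, SE 0.058, edgeR adjusted p = 2.68e-12). Their annotated exons overlap on opposite strands, so without a known strand setting part of the reads could belong to either. The counts of HSPD1 were 475% of those of HSPE1. HSPB1, the small heat shock protein HSP27, went from 198 ± 22.1 FPKM to 103 ± 4.2 FPKM (SD, n = 3), 2.00-fold lower (edgeR adjusted p = 1.91e-10).

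Of the J-domain proteins, DNAJA1, DNAJA3 and DNAJC7 fell. DNAJA1 (ENSG00000086061), a J-domain partner of cytosolic HSP70, had 85.4, 84.2 and 81.8 FPKM in the control, 97.8, 95.0 and 83.3 FPKM at 30 min, and 42.6, 39.3 and 42.8 FPKM at 24 h. It was 2.10-fold lower at 24 h (log2 fold change -1.07, SE 0.065, edgeR adjusted p = 1.70e-11), with no overlap. DNAJA3, the mitochondrial J-domain protein, and DNAJC7, which binds both HSP70 and HSP90, were 1.62-fold and 1.61-fold lower. DNAJC7 overlaps exons of CNP and NKIRAS2 on the opposite strand, whose own counts were 73.6% and 28.5% of those of DNAJC7. DNAJA2 and DNAJB6, a suppressor of protein aggregation, had log2 fold changes of -0.48 and -0.52 (edgeR adjusted p = 8.97e-06 and 8.82e-08). Both lay below the control without overlap and short of the fold change for a call. DNAJB1 and DNAJB4 had log2 fold changes of 0.18 each and were not called.

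Of the 8 HSP90 cochaperones, 4 were called lower at 24 h, against 11.6% of all genes tested. At the adjusted p alone 7 were lower, against 32.7%. FKBP4 (ENSG00000004478, chr12:2794970-2805423), the immunophilin FKBP52 that joins HSP90 in steroid receptor complexes, had 93.1, 90.5 and 89.5 FPKM in the control, 96.8, 90.7 and 93.6 FPKM at 30 min, and 33.5, 33.5 and 34.2 FPKM at 24 h. It was 2.82-fold lower at 24 h (log2 fold change -1.49, SE 0.053, edgeR adjusted p = 3.85e-15), without overlap. Its paralog FKBP5, or FKBP51, which occupies the same place on HSP90, had 13.7 ± 0.75 FPKM in the control and 12.9 ± 0.41 FPKM at 24 h (SD, n = 3). The groups of FKBP5 overlapped, and its log2 fold change was -0.15 (SE 0.056, edgeR adjusted p = 0.0278).

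CHORDC1 (ENSG00000110172), a zinc-binding HSP90 partner also called morgana, had 4.97, 4.05 and 4.5 FPKM in the control, 4.49, 5.30 and 4.06 FPKM at 30 min, and 2.14, 1.96 and 1.82 FPKM at 24 h. The decrease was 2.39-fold (log2 fold change -1.26, SE 0.10, edgeR adjusted p = 1.02e-09). AHSA1 (ENSG00000100591), the activator of the HSP90 ATPase, had 53.2, 59.9 and 55.4 FPKM in the control, 58.9, 56.8 and 58.2 FPKM at 30 min, and 28.1, 29.0 and 30.0 FPKM at 24 h. The 24 h groups of both genes were separate from the rest, and AHSA1 was 2.02-fold lower (log2 fold change -1.01, SE 0.061, edgeR adjusted p = 1.55e-11). STIP1, the adaptor HOP that links HSP70 to HSP90, went from 76.2 FPKM to 39.6 FPKM, 2.01-fold lower (edgeR adjusted p = 7.45e-13). The 4 others were not called. CDC37, which brings kinases to HSP90, had a log2 fold change of -0.52, and PTGES3, the p23 protein that stabilises the closed HSP90, one of -0.54. Both lay below the control without overlap (edgeR adjusted p = 1.42e-07 and 3.99e-07) but short of the fold change for a call. UNC45A, a myosin chaperone, had 18.2 ± 0.36 FPKM in the control and 21.4 ± 0.081 FPKM at 24 h (SD, n = 3), 1.13-fold higher with no overlap (edgeR adjusted p = 0.0157), below the fold change for a call. Exons on the opposite strand overlap AHSA1 (VIPAS39, with 13.2% of its counts), UNC45A (HDDC3, 11.1%), HSP90AA1 (WDR20, 1.37%) and HSF1 (DGAT1, 58.1%). The part of those reads in the counts was not tested.

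Among the HSP70 cochaperones, BAG2 fell at 24 h. BAG2 (ENSG00000112208), an exchange factor that inhibits the ubiquitin ligase CHIP, had 3.64, 3.4 and 3.3 FPKM in the control, 3.64, 3.51 and 3.23 FPKM at 30 min, and 1.68, 1.78 and 1.64 FPKM at 24 h. It was 2.12-fold lower (log2 fold change -1.08, SE 0.093, edgeR adjusted p = 2.93e-09), without overlap. Exons of RAB23 overlap it on the opposite strand, and the counts of RAB23 were 24.5% of those of BAG2. ST13, the HSP70-interacting protein HIP, was at 52.5 FPKM in the control and 36.6 FPKM at 24 h, 1.5-fold lower with a log2 fold change of -0.5817, just under the threshold of 0.585. ST13 was called without control replicate 1, control replicate 3 or 24 h replicate 1, at log2 fold changes near -0.59, and also without the filter on low expression (-0.61) and with TMM over all genes of the table (-0.63).

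The heat shock factors were not called at either time. HSF1 (ENSG00000185122), on chromosome 8, had 19.5, 22.1 and 19.7 FPKM in the control, 20.9, 19.5 and 24.1 FPKM at 30 min, and 19.7, 19.1 and 20.6 FPKM at 24 h. The 3 groups overlapped, with log2 fold changes of 0.09 at 30 min (edgeR adjusted p = 0.749) and -0.11 at 24 h (edgeR adjusted p = 0.224). HSF2 (ENSG00000025156), which forms mixed trimers with HSF1, had 4.57, 5.16 and 4.64 FPKM in the control, 5.11, 6.12 and 4.28 FPKM at 30 min, and 3.42, 3.16 and 4.42 FPKM at 24 h. Its 24 h libraries lay below the control, with 24 h replicate 3 the nearest to it, and the log2 fold change was -0.44 (SE 0.14, edgeR adjusted p = 0.00997). Without that library HSF2 was called, at a log2 fold change of -0.60 (edgeR adjusted p = 0.00171). These are mRNA levels, and the activity of HSF1, which is mainly set after translation, was not measured by them.

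The third comparison set 24 h against 30 min, the direct test of whether the genes differed between the treatment times, with time in culture included in that difference. Of the 35 genes, 20 were lower and 0 higher at 24 h, against 11.3% of all 11981 genes tested called lower and 15.7% called higher. The 20 were the 19 called against control and ST13. All 3 libraries at 24 h were below all 3 at 30 min for 27 genes, against 28.6% of all genes tested, and above them for 3, against 39.9%. The median log2 difference was -0.65, and 0.022 over all genes tested. HSPA1B was lower at 24 h than at 30 min by 1.32-fold with no overlap (log2 difference -0.40, SE 0.11, edgeR adjusted p = 0.0034), short of the fold change for a call. DNAJB4 had the largest positive value, 0.5848 (edgeR adjusted p = 0.00568), just under the threshold, and it was called without 30 min replicate 1 (0.71) or without 24 h replicate 1 (0.66). The same control and treated libraries enter these comparisons, so their values are not independent of each other.

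The genes were also grouped by their control level, as a description with no test. Of the 15 genes at 50 FPKM or more in the control, 12 fell, with a median log2 fold change of -1.01, against 21% of all genes tested at that level, whose median was -0.27. Of the 11 genes between 10 and 50 FPKM, 4 fell (median -0.48), against 16.3% of all genes there (median -0.15). Of the 9 genes under 10 FPKM, 3 fell (median -0.44), against 8.03% of all genes there (median 0.12). The low genes that fell were HSPA4L, CHORDC1 and BAG2. The 3 genes of 50 FPKM or more that were not called were CDC37, PTGES3 and ST13, with log2 fold changes of -0.52, -0.54 and -0.58.

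A wider list of 76 matched chaperone network genes, none of them among the 35, was read in the same fit, and 51 of them passed the filter at 24 h. Of these, 14 fell, against 11.6% of all genes tested, and 4 rose, against 14.7%, with a median log2 fold change of -0.33. At 30 min 0 of 51 were called by edgeR, and DESeq2 called 0. An unadjusted p below 0.05 was found for 6 of the 51 at 30 min, a share near the 11.1% of all genes tested. Among the largest decreases at 24 h were those of CLPB, a mitochondrial disaggregase (-1.12), and NUDC, an HSP90 cochaperone (-1.06). The 3 largest increases were those of FNIP2, a folliculin partner that binds HSP90 (1.44), HSF4, a further heat shock factor (1.12), and DNAJB2, a J-domain protein known from neurons (0.91). FNIP2 went from 2.84, 2.35 and 2.67 FPKM in the control to 7.41, 7.84 and 6.99 FPKM at 24 h, with no overlap. Among the J-domain proteins of this list 5 fell and 2 rose of 24 tested, with a median log2 fold change of -0.067. Among the HSP90 cochaperones 6 fell and 1 rose of 16, with a median of -0.45. For both groups the shares of all genes tested are again 11.6% lower and 14.7% higher.

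**Figure D4:**
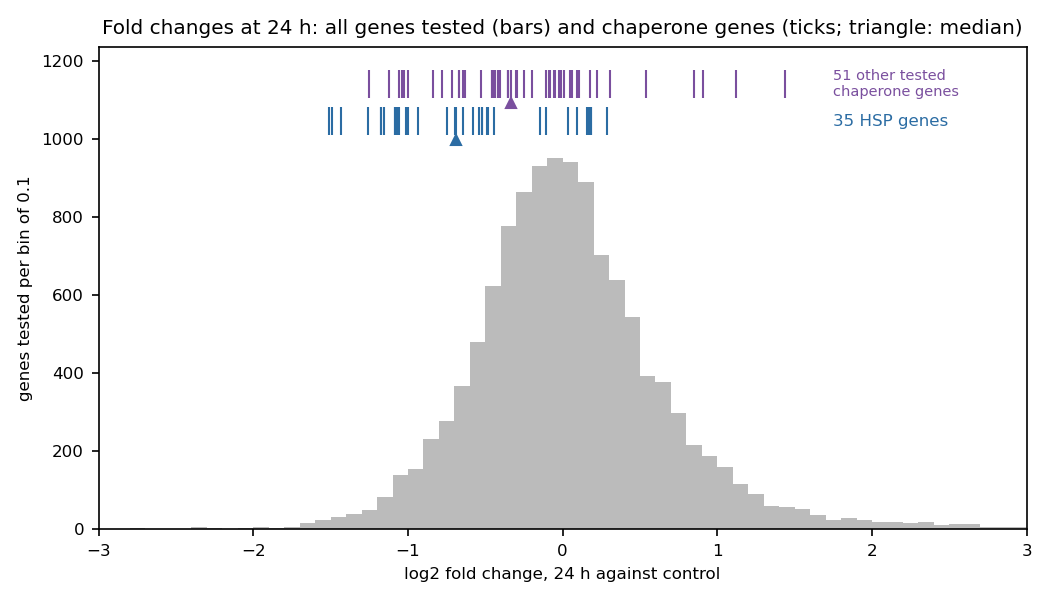
Grey bars count all genes tested by log2 fold change at 24 h against control, in bins of 0.1 between -3 and 3, with 37 genes outside this range. Blue ticks are the 35 chaperone genes, purple ticks the 51 other chaperone network genes tested, and triangles their medians, -0.69 and -0.33, while the median of all genes tested was -0.0056.

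The promoters were then searched for heat shock elements. RefSeq start sites gave windows of 300 bases for 31 of the 35 genes. Some genes had more than 1 start site, and a gene counted when any of its windows matched. There were 46 windows for the 31 genes and 35116 for all 27305 genes, so the 31 had more windows per gene. An element of 3 units (GAANNTTCNNGAA or TTCNNGAANNTTC, which covers both strands) was found for 7 of the 31, or 22.6%, and for 0.608% of all 27305 genes with a window. The 7 were CHORDC1, DNAJA1, DNAJB6, HSP90AA1, HSP90AB1, HSPA8 and HSPD1. DNAJB6 was the one of these 7 not called at 24 h. An element of 3 units was present in 6 of the 18 genes with a window that fell at 24 h and in 1 of the 13 that were not called. The shorter element of 2 units, which every element of 3 units contains, was found for 16 of the 31 genes, 51.6%, against 16.2% of all genes, and in 11 of the 18 that fell and 5 of the 13 others. HSPA1A, HSPA1B, DNAJB1 and DNAJB4, with values near or above the control at 24 h, carried 2-unit elements and none of 3 exact units in these windows. The same held for HSPA4L, HSPA9, HSPB1, BAG2 and STIP1, which fell. HSPA13, UNC45A and BAG3, also above the control at 24 h, were not among the genes with a match to either element. The search accepted exact units only. An element with a mismatched base in a unit was not counted, so longer imperfect elements in these genes may have been missed. The E-box CACGTG, a sequence bound by MYC and MAX, was found for 5 of the 31 genes (FKBP5, HSF2, HSPA9, HSPD1 and HSPE1), 16.1%, against 8.77% of all genes. The matches of HSPD1 and HSPE1 are the same site, read from both strands between these neighbouring genes. An E-box was present in 3 of the 18 genes that fell and in 2 of the 13 others. A match is a sequence in the window only, and binding was not measured.

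The study's list of matrine-regulated c-Myc target genes holds 4 of the 35 genes, HSP90AB1, HSPD1, HSPE1 and FKBP4, and all 4 fell at 24 h. That list was chosen on these samples, so it is not independent evidence of direction. Of the 31 genes not on it, 15 fell, against 11.6% of all genes tested called lower. The mRNA of MYC itself was already lower at 30 min, with a log2 fold change of -1.93 (edgeR adjusted p = 2.67e-14). At 30 min 0 of the 35 chaperone genes were called lower, against 0.544% of all genes tested. That share is so small that a count of 0 does not set the 35 genes apart.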

How the data were processed

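RNA-seq of U937 cells was analysed in 9 libraries, 3 per group. The authors trimmed reads with cutadapt (1.9.1), mapped them with HISAT2 (2.0.1) and counted them per gene with HTSeq (0.6.1), the versions being those in the submitters' processing notes, and named both poly(A) selection and rRNA removal. They deposited raw counts and FPKM per gene. The paper gives the build as hg38 and the notes GRCh37. The table holds no coordinates, so those printed are from GENCODE 44 (GRCh38) and promoters from RefSeq (GRCh38.p14). Annotation release, strand setting and multimapped reads are not given in the sources used here. Of 57905 identifiers, 51996 were matched to a symbol.

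The deposited counts were tested with edgeR (4.0.16, R 4.3.3): TMM normalization after the filter, quasi-likelihood F-test, all 9 libraries in 1 fit, Benjamini-Hochberg adjustment over all genes tested. Genes tested had a mean deposited FPKM above 1 over the 6 libraries compared. A call required both a 1.5-fold difference or more and an adjusted p under 0.05. The SE is the log2 fold change divided by the root of F. DESeq2 (1.42.0) was an alternative, and the authors used it for their own calls. The procedure was tested on simulated data with far fewer changed genes than were called at 24 h. That test does not cover normalization under a change as wide as the one at 24 h. Replicates differed by more than sampling noise and were kept separate. Replicate numbers do not pair the libraries.

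The 35 genes and the lists were chosen with earlier results of these data known. Values in every library were given for genes called at 30 min, the 12 largest changes called at 24 h, and HSPA8, HSP90AA1, HSP90AB1, HSF1 and HSF2. The genes named from the wider list are those with the 3 largest increases and decreases called at 24 h, of which 1 decrease is not reported here. HSPA1A, DNAJB1 and BAG3 were added after their values were seen.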

Additional observations from a re-analysis of the deposited data

Results flagged for a closer look

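For 20 of the 35 genes the difference in mRNA level between 24 h and 30 min of matrine was called. Of all genes tested, 11.3% were called lower and 15.7% higher. The difference cannot be told apart from time in culture. The 24 h value minus the 30 min value, tested directly in edgeR, passed the adjusted p and the 1.5-fold threshold. These log2 differences were -1.59 for HSPA8, -1.54 for FKBP4, -1.46 for TRAP1, -1.30 for CHORDC1 and -1.23 for HSPE1. Between these and the smaller ones came -1.22 for DNAJA1, -1.20 for HSPD1, -1.18 for HSPH1, -1.11 for HSPA4L, -1.11 for HSPB1, -1.10 for HSP90AB1, -1.10 for BAG2 and -1.07 for STIP1. The remaining differences were -1.07 for AHSA1, -0.98 for HSP90AA1, -0.75 for HSPA4, -0.68 for DNAJC7, -0.65 for HSPA9, -0.64 for DNAJA3 and -0.62 for ST13. In all 20 the 24 h value was the lower one. At the adjusted p alone, 29 of the 35 genes were lower, against 32.1% of all genes tested, and 3 higher, against 33.2%.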

How the results depend on the processing

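The number of the 35 genes called lower at 24 h was 13 (threshold at 2-fold) to 26 (at 1.2-fold) over the planned and added alternatives, against 19, and that for 24 h against 30 min 14 to 27, against 20. Leaving out 1 library gave 19 to 20 and 20 to 23. At 30 min, 0 were called lower in every alternative run and 1 was called higher with any library left out. With the threshold at 1.2-fold, 2 genes were called higher at 30 min, 1 at 24 h and 2 in 24 h against 30 min (0.285%, 26.8% and 29.1% of all genes tested), and with it at 2-fold, 0 were called higher at 30 min, as with HSPA1A and HSPA1B summed. For 24 h against 30 min 1 gene was called higher, DNAJB4, with library totals alone and with the replicate block, and 0 to 1 with 1 library left out. The median log2 fold change at 24 h was -0.61 with a mean FPKM above 5, -0.63 with library totals alone and -0.74 with TMM over all genes of the table, an alternative added after the data were seen. For 24 h against 30 min it was -0.70 without the filter, -0.58 with a mean FPKM above 5, -0.58 with library totals alone and -0.72 with TMM over all genes, and -0.70 to -0.65 with 1 library left out. Of the wider list, 0 to 1 genes were called at 30 min with 1 library left out. HSPA1A at 24 h had the opposite sign, -0.017, with TMM over all genes, and lay between -0.083 (without control replicate 3) and 0.18 (without control replicate 1) with 1 library left out, also below 0 without 24 h replicate 1 (-0.023). HSPA9 lost its call at 24 h with a mean FPKM above 5, and HSPA9, DNAJA3 and ST13 lost theirs against 30 min there and with library totals alone. The cause of these shifts was not tested. Over all genes, 1401 were called lower at 24 h, against 771 with a mean FPKM above 5, 375 (3.12%) with the threshold at 2-fold and 3311 (27.5%) with it at 1.2-fold.

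Deviations of libraries with the same replicate number correlated between -0.159 and 0.103, so the numbers do not pair them. With the replicate block, 19 of the 35 genes were called lower at 24 h. Low counts limit DNAJB4, with as few as 63 counts most.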
